A study of Mus musculus with 18 samples.

Results

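Enzymes that hydroxylate and cross-link collagen, with its chaperone, were followed across the libraries through 10 genes listed by name, with earlier results of these data known: Serpinh1, P4ha1, P4ha2, Plod1, Plod2, Plod3, Lox, Loxl1, Loxl2 and Loxl3. They are 10 of the 55487 genes in the count table, and all 10 were among the 13865 genes with enough reads to be tested. RNA came from MEFs (fibroblasts cultured from mouse embryos, which lay down collagen matrix), kept for 24 h in full growth medium with 0 µM (control), 10 µM or 30 µM uracil. Each of the 3 doses had 6 libraries, and the labels number them 1 to 6 within each dose. The labels give no strain, genotype or embryo for the cells, and all groups shared the same serum-containing medium.

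Collagen chains are modified while they are still in the endoplasmic reticulum. Prolyl 4-hydroxylase makes the hydroxyprolines that keep the triple helix stable at body temperature, and lysyl hydroxylases make the hydroxylysines that carry sugars and later form strong cross-links. Both enzyme families need oxygen, iron, ascorbate and 2-oxoglutarate. HSP47, the product of Serpinh1, is the collagen-specific chaperone that binds the folded helix until it leaves that compartment. Outside the cell, copper-dependent lysyl oxidases oxidise lysines and hydroxylysines so that collagen and elastin fibres become cross-linked.

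Sequences upstream of the genes are shown because P4ha1 and P4ha2 encode alternative catalytic subunits of the same enzyme and differed between replicate numbers in unlike ways, while Serpinh1 had the smallest spread of the set in the 15 libraries described below. RefSeq windows of 300 bases, from 250 bases before each transcription start to 50 from it, were on hand for 5 of the 10 genes (Plod1, Plod3, P4ha1, P4ha2 and Serpinh1), on GRCm38.p6. The windows of P4ha1 (chr10:59323046-59323345, plus strand), P4ha2 (chr11:54100674-54100973, plus strand) and Serpinh1 (chr7:99353190-99353489, minus strand) are written 5′ to 3′. Capitals mark each ACGTG, a form of the core of the hypoxia response element, read on either strand (CACGT is the same motif on the other strand). Other forms of this core were not searched and are not marked.
P4ha1: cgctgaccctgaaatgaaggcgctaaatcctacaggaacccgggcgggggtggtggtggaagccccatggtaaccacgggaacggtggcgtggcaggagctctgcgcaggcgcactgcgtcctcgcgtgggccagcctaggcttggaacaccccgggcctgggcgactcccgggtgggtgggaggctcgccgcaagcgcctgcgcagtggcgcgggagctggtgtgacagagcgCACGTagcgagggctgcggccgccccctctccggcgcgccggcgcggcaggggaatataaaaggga
P4ha2: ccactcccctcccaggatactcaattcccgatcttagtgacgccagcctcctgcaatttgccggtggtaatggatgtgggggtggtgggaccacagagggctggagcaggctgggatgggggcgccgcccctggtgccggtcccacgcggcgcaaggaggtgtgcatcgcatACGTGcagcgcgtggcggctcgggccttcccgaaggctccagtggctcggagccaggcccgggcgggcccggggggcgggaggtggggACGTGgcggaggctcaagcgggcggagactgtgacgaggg
Serpinh1: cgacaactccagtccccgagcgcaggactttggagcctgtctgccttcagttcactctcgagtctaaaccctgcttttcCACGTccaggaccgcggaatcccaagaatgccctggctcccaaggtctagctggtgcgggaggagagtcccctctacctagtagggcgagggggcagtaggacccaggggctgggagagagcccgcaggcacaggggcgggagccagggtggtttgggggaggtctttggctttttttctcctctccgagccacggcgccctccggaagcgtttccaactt

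Counted from the start base as 0, the first base of the motif lay at −78 and 10 in P4ha2, at −16 in P4ha1 and at −171 in Serpinh1. Of the 5 windows 4 held ACGTG, the fourth being Plod3 at −54, against 19.6% of all 32851 mouse windows of this length. The shares over all windows were not matched for GC content, which was 53.3% (Plod3) to 70.3% (P4ha1 and P4ha2) in the 5 windows. The window of Plod1 held no ACGTG but was the one of the 5 with GAANNTTC, the core of a heat shock element, at 42, a motif found in 7.86% of all windows. GGGCGG, the GC box, was present in Plod1, P4ha1, P4ha2 and Serpinh1, with 4 matches in P4ha2, and in 35.7% of all windows. In these windows no match of one motif overlapped a match of another. A match describes letters only, and binding was not measured.

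Library quality varied. Of the pairs in control replicate 1, 54.2% did not align and 3.96 M fell in genes, 30 µM replicate 6 had 7.39 M with 37.9%, and 10 µM replicate 6 had 5.24% unaligned, against 11.6 to 20.8 M counts for all libraries but the first pair and 1.72% to 3.59% unaligned in the other 15. The study's methods mention a vehicle sample and a 30 µM sample set aside for human RNA, and the labels do not say which these were. Tests are therefore given for all 18 libraries. For the 15 without these 3, fold changes are given for Serpinh1 and the lysyl oxidases at 30 µM, and elsewhere where the sign changed. The fold changes printed for the P4ha and Plod genes in their dose paragraphs are from all 18. Counts of genes called are given for both sets. Levels divided by gene length, shares and correlations are given for the 15, with the values in all 18 where these differ. The lowest, median and highest CPM at a dose are from all 18. So are the means by number of genes outside the 10. In the 15 libraries control has no number 1 and the other doses have no number 6, so that an unblocked contrast of doses also compares numbers. In 15 libraries the 10 genes had at least 824 counts each, so counting error was small beside the spread between libraries. In control replicate 1, 6 of the genes lay below all 5 other control libraries, 2 above and 2 within their range. In 10 µM replicate 6 the same positions held 6, 0 and 4 genes, and in 30 µM replicate 6 they held 4, 1 and 5. The share of all genes tested in these positions was not computed, so these counts do not set the 10 genes apart. Marker levels are for all 18 libraries. All 9 fibroblast markers (such as Col1a1, Pdgfra and Thy1) were at 1 CPM or more, with a summed level of 27381 to 59656 CPM. The dose medians of this sum were 30231 (control), 29349 (10 µM) and 31757 CPM (30 µM). Its highest value was 30 µM replicate 6, where Col1a1 had 32745 CPM against a median of 7692 CPM. Summed markers of other cells were 62.2 to 134 CPM (epithelial, 8 genes), 62.2 to 311 CPM (mesothelial, 5), 7.45 to 12.03 CPM (endothelial, 6), 1.39 to 5.85 CPM (macrophage and leukocyte, 7, with Cd3e at 0 in every library), 12.8 to 30.6 CPM (skeletal muscle, 5, with Myod1 at 0) and 234 to 328 CPM (neural, 5). In bulk RNA, a lower share of cells that make a transcript and less of it per cell cannot be told apart.

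The set spanned a wide range of abundance. TMM-scaled CPM values (the counts of a gene relative to the size of its library) were divided by the summed length of all annotated exons to set genes side by side. Serpinh1 was highest, at 439 ± 19.9 CPM per kb (SD, n = 15 libraries), above Lox at 306 ± 53.8 in all 15 libraries. Loxl1 had 119 ± 11.1, P4ha1 78.4 ± 4.35, Plod3 44.2 ± 3.03 and Loxl3 42.2 ± 7.50 CPM per kb. At the low end stood Plod1 (15.6 ± 1.34), Plod2 (15.3 ± 1.16), Loxl2 (14.8 ± 1.98) and P4ha2 (11.3 ± 1.64).

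Neighbours in this order were separated in all 15 libraries except for 3 pairs (in all 18, Serpinh1 exceeded Lox in 17). Plod3 exceeded Loxl3 in 9 of 15 libraries, Plod1 exceeded Plod2 in 9 and Plod2 exceeded Loxl2 in 9, so the order within these pairs was not set beyond the spread. The order also depended on the length used. With the length of the canonical transcript alone, P4ha1 (168 ± 9.35 CPM per kb) passed Loxl1 (142 ± 13.1) in all 15 libraries, and P4ha2 moved from the last to the seventh place (43.2 ± 6.29), leaving Loxl2 last at 15.3 ± 2.06. Serpinh1 and Lox kept the first and second places under both lengths.

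**Figure D1:**
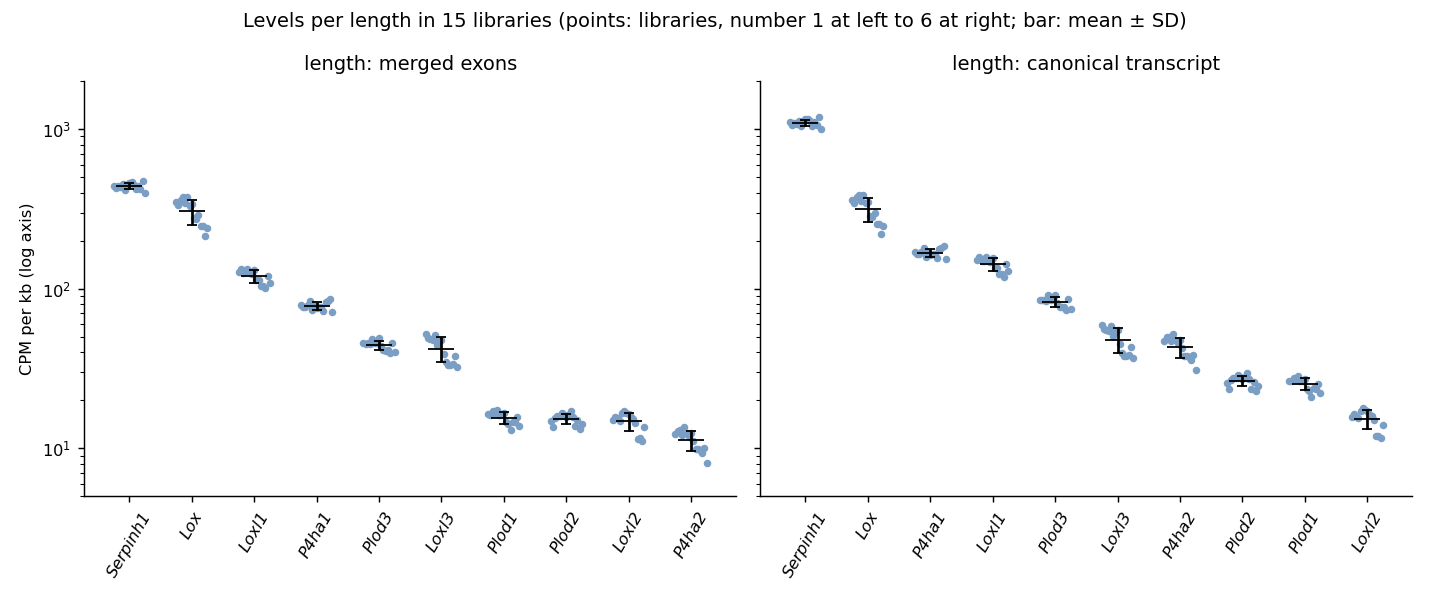
Level of each gene in CPM per kb (log axis) in the 15 libraries, by the length of merged exons (left) and of the canonical transcript (right), where points are libraries from number 1 at the left to number 6 at the right and bars are mean ± SD. Serpinh1 and Lox are the first and second gene in both panels, while P4ha2 is last on the left and seventh on the right.

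Within each enzyme family 1 gene supplied most of the transcripts. Lox, the founding lysyl oxidase, made up 62.2% ± 2.64 (SD, n = 15) of the length-corrected signal of the 5 lysyl oxidase genes, followed by Loxl1, which is known for elastic fibres, at 24.6% ± 2.29. Loxl3 gave 8.57% ± 0.664, Loxl2, which acts on basement membrane and fibrillar collagen, 3.02% ± 0.272, and Loxl4, the family's remaining gene, 1.67% ± 0.183. Plod3, whose enzyme also transfers the sugars, gave 58.8% ± 1.196 of lysyl hydroxylase signal, with Plod1, the helix lysyl hydroxylase, at 20.7% ± 0.882 and Plod2, the hydroxylase of the telopeptide lysines, at 20.4% ± 1.61. P4ha1 gave 83.5% ± 2.56 of prolyl 4-hydroxylase alpha subunit signal, P4ha2 11.98% ± 1.48 and P4ha3 4.49% ± 1.22. By canonical length the shares of Lox, Plod3 and P4ha1 were 59.3%, 61.5% and 77.3%, and the leading gene of each family was the same. In all 18 libraries the shares of these 3 genes by merged exons were 63.0% ± 4.79, 58.9% ± 1.48 and 82.5% ± 3.56.

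No gene of the set passed the threshold of an adjusted p of 0.05 for uracil. By edgeR's quasi-likelihood test on all 18 libraries, 0 of 10 passed in the contrasts of 10 µM with control, of 30 µM with control and of 30 µM with 10 µM, in the F test over all 3 doses and in the slope on dose, and 0 of 10 had an unadjusted p under 0.05 in any of the 5. The background was the same, with 0 of 13865 genes called in each of these tests (0.0%) and 96, 595, 323, 212 and 757 genes at an unadjusted p under 0.05 in that order. DESeq2 also called 0 of the 10 in each test, with 91, 614 and 377 genes at an unadjusted p under 0.05 in the 3 contrasts. Limma voom called 0, with 636, 908 and 421 genes. In the slope on dose 1 of the 10 had an unadjusted p under 0.05 with either method. Of all genes tested, 844 (6.09%) did so in the slope with DESeq2 and 885 (6.38%) with limma voom. The adjusted p of the 10 genes at 30 µM ran from 0.931 (Loxl1) to 0.999 (Plod2) with edgeR, and at 10 µM it was 1.00 for each. The contrasts share libraries, so they are not independent of each other. The study's methods call the 6 libraries of a dose biological replicates, without saying whether these were separate embryos or cultures, and the labels do not say what a number stands for.

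Serpinh1, the chaperone gene, had 1538, 2997 and 3261 CPM in control (lowest, median and highest of 6 libraries), 2517, 3068 and 3152 CPM at 10 µM and 2710, 3079 and 3327 CPM at 30 µM. The groups overlapped throughout. The lowest value at each dose belonged to 1 of the 3 libraries with more unaligned reads than the other 15 (5.24% at 10 µM). Its log2 fold change at 30 µM was 0.14 ± 0.13 (SE, 95% interval −0.13 to 0.41) in 18 libraries and 0.041 ± 0.043 (−0.050 to 0.13) in 15. The latter interval is the narrowest of the set in 15 libraries. Within numbers 2 to 5 Serpinh1 was higher than control in 1 of 4 numbers at 10 µM and in 3 at 30 µM.

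The prolyl 4-hydroxylase subunits had overlapping levels at the 3 doses. P4ha1 had 429, 487 and 536 CPM in control, 442, 515 and 542 CPM at 10 µM and 403, 494 and 562 CPM at 30 µM. P4ha2 had 70.0, 91.3 and 114 CPM in control, 70.5, 95.3 and 108 CPM at 10 µM and 78.6, 98.3 and 118 CPM at 30 µM. For both genes the ranges overlapped, and the highest library was one at 30 µM. The log2 fold change of P4ha1 was 0.060 ± 0.077 (SE) at 10 µM and 0.031 ± 0.077 at 30 µM, and that of P4ha2 was 0.022 ± 0.14 and 0.11 ± 0.14. These fits of all 18 libraries have no block, so their SE includes the spread between numbers. Within numbers 2 to 5, P4ha2 was higher than control in 0 of 4 numbers at 10 µM and in 2 at 30 µM. P4ha1 was higher in 3 of 4 at each dose. With the number as a block in the 15 libraries, P4ha2 turned negative at both doses and P4ha1 kept its sign.

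The lysyl hydroxylase genes overlapped between doses as well. Plod1 had 123, 140 and 163 CPM in control, 132, 147 and 160 CPM at 10 µM and 124, 155 and 167 CPM at 30 µM. Plod2 had 77.3, 95.7 and 107 CPM, then 95.3, 99.7 and 110 CPM, then 80.0, 94.5 and 103 CPM. Plod3 had 244, 263 and 284 CPM, then 226, 268 and 285 CPM, then 254, 284 and 304 CPM. The ranges overlapped for each gene, and of these Plod3 is the one whose lowest value at 30 µM lay above the lowest of both other doses. Their log2 fold changes at 30 µM were 0.093 ± 0.081 (Plod1), −0.026 ± 0.081 (Plod2) and 0.097 ± 0.068 (Plod3, SE, 95% interval −0.046 to 0.24), with 0.042 ± 0.081, 0.091 ± 0.081 and −0.011 ± 0.068 at 10 µM. These values are from all 18 libraries without the number as a block. In the 15 libraries Plod3 turned positive at 10 µM. With the block in the 15 libraries Plod1 turned negative at both doses, while Plod2 and Plod3 kept the signs of the 18 libraries.

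Among the lysyl oxidases, Lox showed the widest spread. It had 1180, 1576 and 2940 CPM in control, 1219, 1598 and 1853 CPM at 10 µM and 1049, 1536 and 1696 CPM at 30 µM. The highest value of all was control replicate 1, the library with the most unaligned reads. The log2 fold change of Lox at 30 µM was −0.24 ± 0.19 (SE, 95% interval −0.64 to 0.16) in 18 libraries, and without the 3 libraries it was 0.010 ± 0.17 (−0.35 to 0.37), with dose means of 1480 ± 315, 1553 ± 263 and 1498 ± 272 CPM (SD, n = 5 each). At 10 µM it turned from −0.15 ± 0.19 to 0.066 ± 0.17. With the number as a block in the same 15 libraries, Lox had −0.099 ± 0.046 at 30 µM (95% interval −0.20 to −0.0027, unadjusted p = 0.0445 and adjusted p = 0.896 by edgeR) and −0.039 ± 0.046 at 10 µM. The sign in the 15 libraries therefore depended on whether numbers were balanced. Loxl2 behaved alike: control replicate 1 was its highest library (124 CPM, against 63.3 to 95.2 CPM in the other controls), and its log2 fold change at 30 µM went from −0.11 ± 0.13 to 0.012 ± 0.12, and to −0.027 ± 0.045 with the block.

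Loxl1 had the smallest p of the set at 30 µM. It had 412, 439 and 499 CPM in control, 397, 470 and 506 CPM at 10 µM and 414, 521 and 547 CPM at 30 µM. The groups overlapped, and the highest library was 30 µM replicate 6, with 37.9% of its pairs unaligned. The log2 fold change at 30 µM was 0.15 ± 0.082 (SE, 95% interval −0.020 to 0.32, unadjusted p = 0.0796 and adjusted p = 0.931 by edgeR) in 18 libraries, 0.093 ± 0.077 in 15 and 0.048 ± 0.044 in 15 with the block. Loxl3, whose enzyme resembles that of Loxl2, had 151, 172 and 226 CPM in control, 137, 192 and 245 CPM at 10 µM and 155, 201 and 240 CPM at 30 µM, with a log2 fold change at 30 µM of 0.14 ± 0.15 in 18 and 0.14 ± 0.16 in 15 libraries, but 0.017 ± 0.054 in 15 with the block.

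Over the set, 7 of 10 log2 fold changes were positive at 10 µM and 7 at 30 µM, with medians of 0.036 and 0.095, while the medians of all genes tested were 0.0059 and 0.012. In 15 libraries 9 of 10 were positive at each dose and the medians were 0.030 and 0.043, beside −0.0010 and −0.0035 for all genes tested. With numbers balanced these tallies were lower. With the number as a block in the 15 libraries, 3 of 10 were positive at 10 µM (median −0.017) and 5 at 30 µM (0.0054), and in numbers 2 to 5 the counts were 2 (−0.020) and 5 (0.016). The medians of all genes tested were −0.0028 and −0.0035 with this block, and −0.0049 and −0.0035 in numbers 2 to 5. Both contrasts use the same control libraries.

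**Figure D2:**
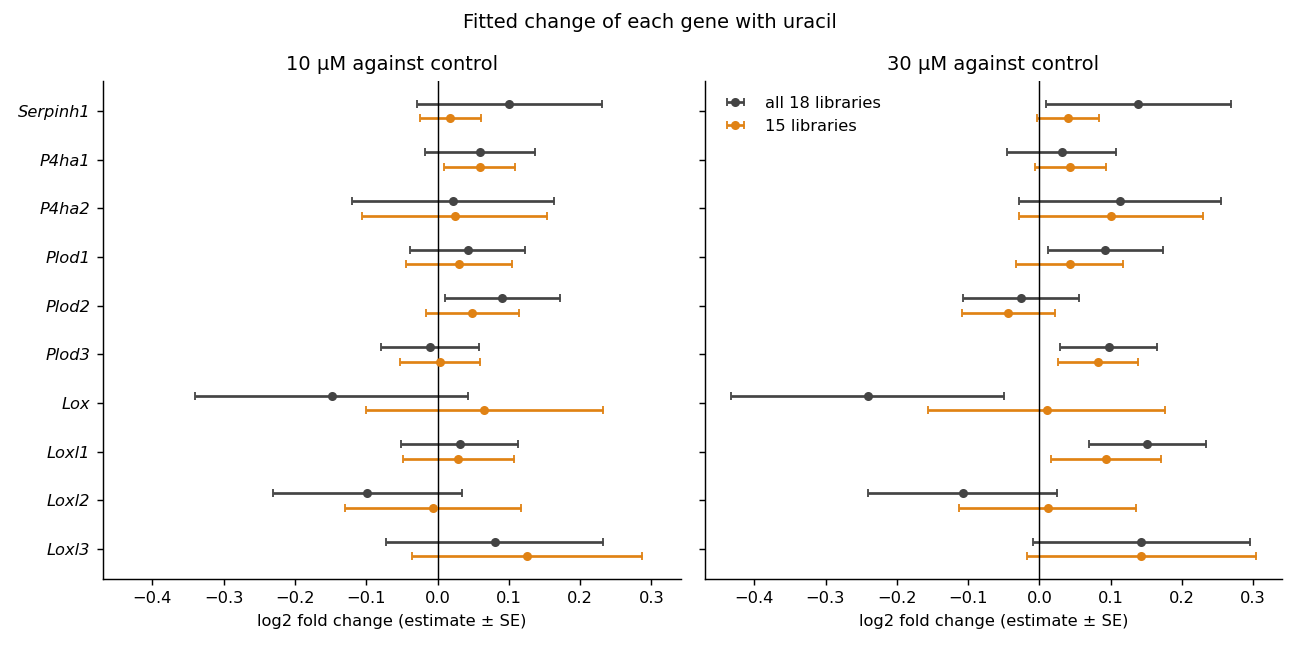
Fitted log2 fold change of each gene at 10 µM (left) and 30 µM (right) against control, where points are estimates, bars are ± SE, grey is all 18 libraries and orange the 15 libraries. At 30 µM Lox moves from −0.24 to 0.010 and Loxl2 from −0.11 to 0.012 between the library sets, neither of which has the number as a block, and 0 of the 10 genes passed the test.

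The same genes differed between replicate numbers. With all 18 libraries, 5 of 10 passed the edgeR test of number with dose in the model, where 12.6% of all genes did: Loxl3 (adjusted p = 0.00976), Lox (0.0163), Loxl2 (0.0169), P4ha2 (0.0189) and Plod2 (0.0496). In the 15 libraries, where number 6 keeps 1 library and number 1 keeps 2, 9 of 10 passed against 20.8% of all genes. In numbers 2 to 5, where all 12 libraries were among these 15, 9 of 10 passed against 19.9%. In both of these sets the exception was Serpinh1, with an adjusted p of 0.694 in the 15 libraries, and in all 18 its adjusted p was 0.524 by edgeR. On 18 libraries DESeq2 called 8 of 10 against 21.6% of all genes, and limma voom 9 against 42.4%. With edgeR, RLE scaling called 4 against 12.6%, library totals 4 against 11.4% and no filter on low counts 4 against 5.65%. Leaving out single libraries gave 1 to 8 calls: 1 without control replicate 5, 2 without 10 µM replicate 5 or 30 µM replicate 5, 3 without control replicate 2, 30 µM replicate 2 or 10 µM replicate 6, and 8 without control replicate 1. Over all genes, these fits called from 9.08% (when control replicate 5 was left out) to 25.0% (when control replicate 1 was). What sets the numbers apart (embryos, passage, day of culture or library preparation) is not given by the labels and was not tested.

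**Figure D3:**
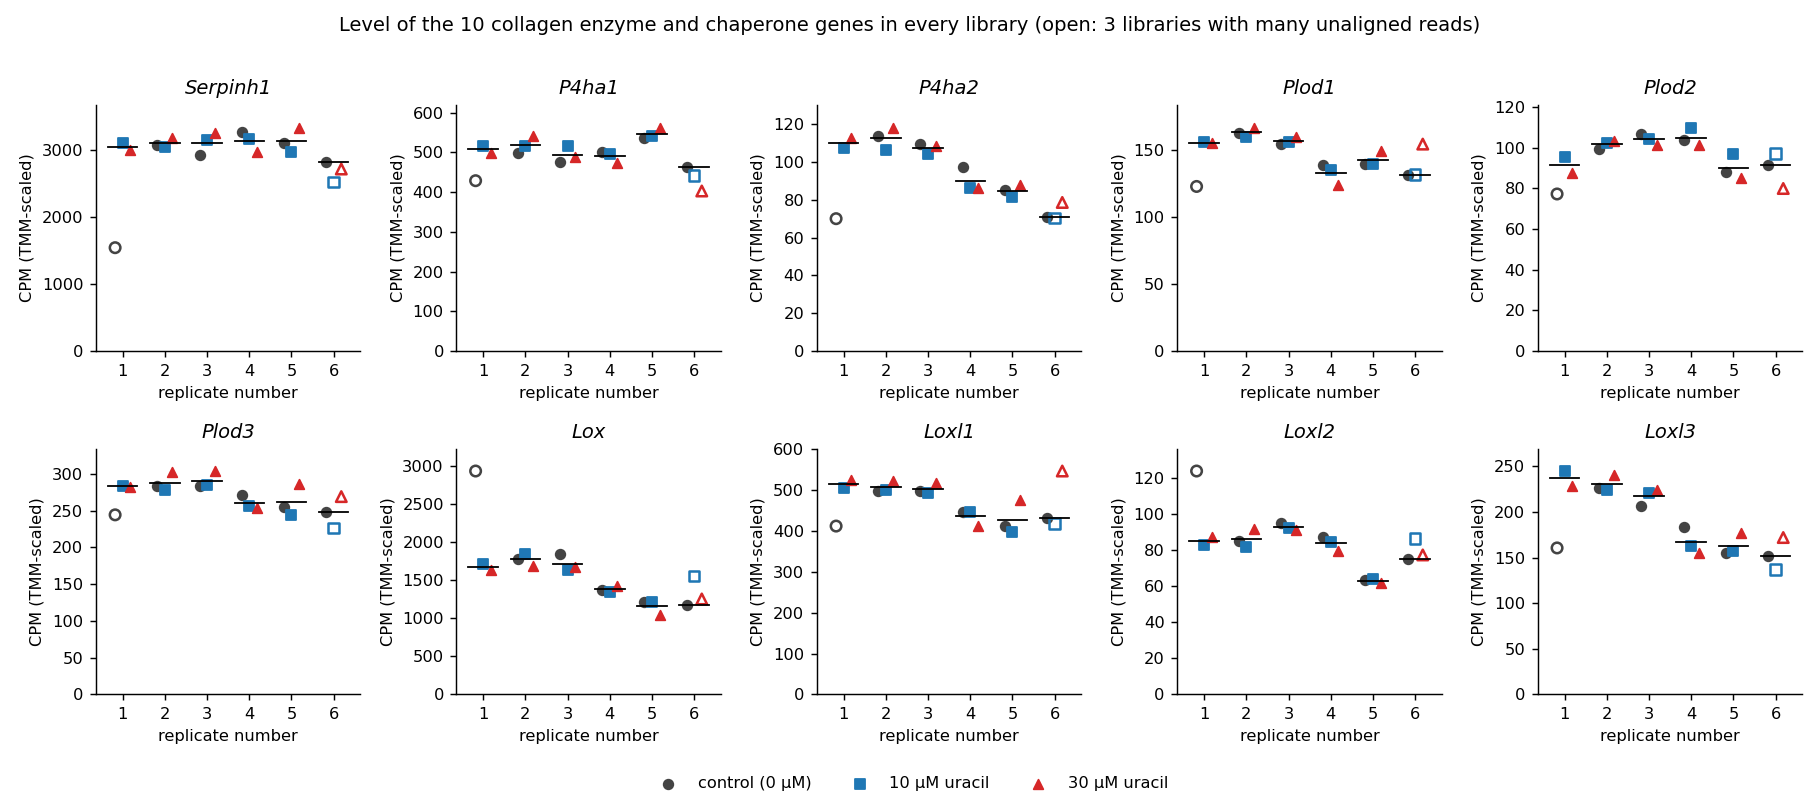
CPM of the 10 genes in every library against replicate number, where colour and shape give the dose, open symbols are the 3 libraries with many unaligned reads and black lines are the mean of the others. In P4ha2, Lox, Loxl2 and Loxl3 the filled symbols of 1 number lie together at all doses and numbers differ, while the number means of Serpinh1 stay between 2807 and 3131 CPM, and several open symbols lie away from the filled ones of their number.

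Lox gives the clearest case. In number 2 it had 1784, 1853 and 1696 CPM (control, 10 µM and 30 µM), in number 3 1848, 1635 and 1672 CPM, in number 4 1368, 1345 and 1431 CPM and in number 5 1222, 1219 and 1049 CPM. Each library of numbers 2 and 3 lay above every library of numbers 4 and 5. The mean of number 2 was 1.53 times that of number 5, whereas the dose means over numbers 2 to 5 differed by at most 1.06 times. Number 1 at 10 and 30 µM (1713 and 1641 CPM) lay with numbers 2 and 3, and control replicate 6 (1180 CPM) with number 5.

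Among numbers 2 to 5, Loxl2 and Loxl3 were both lowest in number 5, and Loxl3 was low in number 4 as well. Loxl2 was low in number 5 alone among numbers 2 to 5, with 63.3, 63.9 and 61.5 CPM against 79.7 to 95.2 CPM in numbers 2, 3 and 4, a ratio of 1.48 between the means of numbers 3 and 5. Loxl3 had 226, 224 and 240 CPM in number 2 and 207, 221 and 225 CPM in number 3, but 184, 162 and 155 CPM in number 4. In number 5 the values were 155, 157 and 177 CPM. The libraries of numbers 2 and 3 did not overlap those of numbers 4 and 5. Loxl1 showed a smaller contrast of the same kind, from 508 ± 13.7 CPM in number 2 down to 428 ± 41.8 CPM in number 5 (SD, n = 3), a ratio of 1.19.

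Both catalytic subunits of prolyl 4-hydroxylase differed between numbers, but not alike. In number 2 P4ha2 had 114, 107 and 118 CPM (control, 10 µM and 30 µM) and in number 3 it had 109, 104 and 109 CPM. In number 4 it had 97.3, 86.2 and 86.5 CPM and in number 5 it had 85.2, 81.5 and 87.8 CPM, so that no library of numbers 4 and 5 reached any of numbers 2 and 3. For P4ha1 the values were 498, 515 and 540 CPM (number 2), 476, 515 and 489 CPM (number 3), 501, 496 and 473 CPM (number 4) and 536, 542 and 562 CPM (number 5). Number 5 held the highest mean of P4ha1. P4ha2 was therefore lowest where P4ha1 was highest among numbers 2 to 5.

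The ratio of P4ha2 to P4ha1, taken within a library and so free of its scaling, was 0.218 on average in numbers 1, 2 and 3 each (0.203 to 0.230 over their libraries). It was 0.184 in number 4 (0.174 to 0.194), 0.155 in number 5 (0.1503 to 0.159) and 0.153 in control replicate 6. These are ratios of CPM, not of molecules, because the genes differ in length. The libraries of number 4 lay below all of numbers 1 to 3 and above all of number 5. In control replicate 1 the ratio was 0.163 and in 30 µM replicate 6 it was 0.195, away from the others of their numbers, while in 10 µM replicate 6 it was 0.159.

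**Figure D4:**
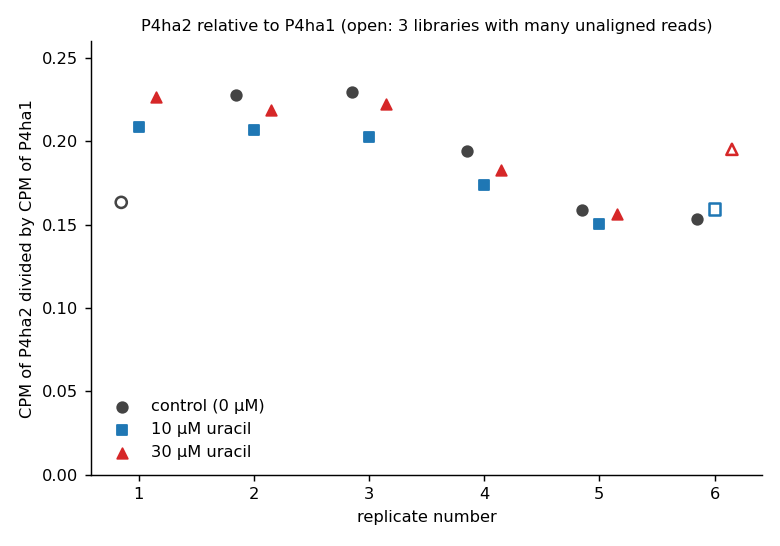
CPM of P4ha2 divided by CPM of P4ha1 in each library against replicate number, with dose as colour and shape and the 3 libraries with many unaligned reads as open symbols. The ratio averages 0.218 in numbers 1 to 3, 0.184 in number 4 and 0.155 in number 5 over the filled symbols.

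The lysyl hydroxylase genes had their own patterns. Plod1 was highest in number 2 (163 ± 3.51 CPM, SD, n = 3) and lowest of numbers 2 to 5 in number 4 (133 ± 7.87 CPM), a ratio of 1.23. Plod2 ran from 105 ± 4.45 CPM in number 4 down to 90.2 ± 6.19 CPM in number 5, a ratio of 1.16. Plod3 ran from 291 ± 11.4 CPM in number 3 to 261 ± 9.12 CPM in number 4, a ratio of 1.12. Number 5 was close behind for Plod3, at 262 ± 21.5 CPM. Number 4 thus had the highest mean of Plod2 and the lowest mean of Plod1.

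Serpinh1 held level across numbers 2 to 5. The number means were 3095 ± 68.3, 3101 ± 161, 3123 ± 154 and 3131 ± 182 CPM (SD, n = 3), a ratio of 1.01, which was smaller than its ratio between doses in the same libraries (1.03). Its adjusted p for number in these 12 libraries was 0.976 by edgeR. Its standard deviation of log2 CPM over the 15 libraries was 0.066, against 0.264 for Lox and a median of 0.138 for all genes tested. This holds for the 15 libraries only: over all 18, with the low value of control replicate 1, it was 0.25 for Serpinh1, above the median of 0.216 for all genes, and Plod3 had the smallest of the set (0.117).

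In the 15 libraries the replicate number accounted for a median of 84.4% of the variance of log2 CPM in the 10 genes and dose for 8.20%, beside 51.9% and 10.6% over all genes tested. The share by number was 95.2% in Loxl2, 93.7% in P4ha2, 93.5% in Lox, 92.4% in Loxl3, 89.3% in Plod1, 79.6% in Loxl1, 78.0% in Plod2, 76.2% in P4ha1, 66.7% in Plod3 and 35.6% in Serpinh1. In all 18 libraries the median by number was 68.2% in the 10 genes and 40.8% over all genes tested, with 74.3% in Loxl2 and 34.5% in Serpinh1 as the highest and lowest of the set and 43.4% in Loxl1. Number has more levels than dose and so takes a larger share also where nothing differs, which is why the value for all genes stands beside it.

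**Figure D5:**
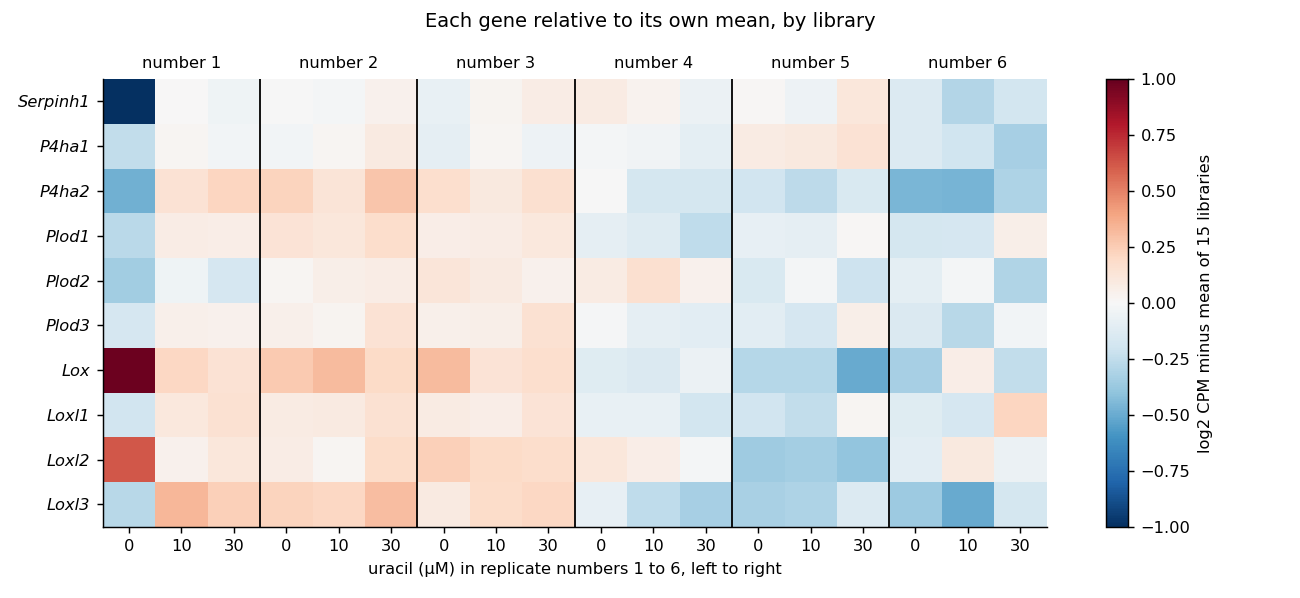
Log2 CPM of each gene minus its mean over the 15 libraries (colour scale), with libraries ordered by number and, within it, by dose. Blocks of 3 columns share colours in Loxl3, Lox and P4ha2, and control replicate 1, at the far left, is dark for Lox and Serpinh1 in opposite directions.

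Levels of the genes varied together to different degrees. Over the 15 libraries, several of which share a number, Pearson's r of log2 CPM was 0.94 between Loxl3 and P4ha2, 0.93 between Loxl1 and Loxl3 and 0.92 between Loxl1 and Plod3. It was −0.52 between Loxl2 and P4ha1, −0.35 between Plod2 and P4ha1 and −0.087 between Lox and Serpinh1. Over all 18 libraries r was 0.93, 0.81 and 0.83 for the first 3 pairs and −0.47, 0.37 and −0.63 for the others, the pair of Plod2 and P4ha1 changing sign. These are descriptions of points that fall into 6 numbers.

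For each gene, the pair of genes with the most similar log2 CPM over the same 15 libraries was taken from 10617 genes of at least 5 CPM. Lox ran with Tgfb2 (r = 0.98), a TGF-β ligand, and with Ddx3y (0.98), a gene of the Y chromosome. Loxl1 ran with Gsn (0.99), which encodes the actin-severing protein gelsolin, and Vim (0.97), which encodes vimentin. Loxl3 ran with Capg and Calr (0.98 each), the latter the gene of the chaperone calreticulin.

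Plod1 ran with Layn (0.94) and with P3h3 (0.92), a gene of the prolyl 3-hydroxylase family. Plod3 ran with Mrc2 (0.95), the endocytic collagen receptor, and Itgb5 (0.95), an integrin chain. P4ha2 ran with Smoc1 (0.97) and Maged2 (0.96), Loxl2 with Galnt17 (0.95) and Ext1 (0.94), the latter a heparan sulphate polymerase gene, and Plod2 with Rnf180 (0.90) and Scamp1 (0.84). P4ha1 ran with Tsc22d3 (0.88) and Aplp2 (0.83), and Serpinh1 with Atp5f1e and Npc2 (0.88 each). Over all 18 libraries r of these 20 pairs ran from 0.39 (Loxl2 with Ext1) to 0.97 (P4ha2 with Maged2).

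Other genes of the pathway were then described from lists written with earlier results of these data known. In every dose test 0 genes of the 5 lists were called by edgeR. For the number, where 12.6% of all genes were called in 18 libraries, 1 of 24 tested genes of collagen folding and modification was called in 18 libraries, Fkbp14, a prolyl isomerase gene (67.3 ± 1.97 CPM in number 2, 47.3 ± 0.610 CPM in number 5, adjusted p = 0.000115), and next in order came Fkbp9 (adjusted p = 0.0760). Of 18 genes of collagen trimming, assembly and cross-linking 13 were called, with Lum and Postn at the smallest p. Postn, which encodes periostin, went from 209 ± 1.97 CPM (number 2) to 99.1 ± 4.19 CPM (number 5). Lum, which encodes the small proteoglycan lumican, had 7.84 ± 1.75 and 2.12 ± 0.381 CPM in these numbers.

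Of 12 substrate genes 5 were called for number. Eln, which encodes elastin, a substrate of the lysyl oxidases, was highest in number 5 (31.3 ± 4.97 CPM) and lowest in number 6 (5.50 ± 0.535 CPM). Col2a1, a cartilage collagen gene, was highest in number 1 (28.4 ± 4.16 CPM) and lowest in number 5 (4.65 ± 1.21 CPM, SD, n = 3 each). These means take all 18 libraries. Number 6 thus includes 10 µM replicate 6 and 30 µM replicate 6, and number 1 includes control replicate 1. Eln spanned 4.96 to 6.03 CPM in number 6, and Col2a1 24.6 to 32.9 CPM in number 1. At 30 µM against control all 12 substrate genes had positive log2 fold changes with a median of 0.15 and 0 called, and in 15 libraries 10 of 12 were positive with a median of 0.094, or 0.055 with the block. At 10 µM with the block 2 of 12 were positive, with a median of −0.029.

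Of 23 genes of the HIF pathway and hypoxia response 6 were called for number, and the leading pair moved in opposite directions. From number 2 to number 5, Ndrg1 went from 34.8 ± 1.06 to 56.7 ± 3.52 CPM, while Adm, which encodes adrenomedullin, went from 67.4 ± 2.58 to 32.5 ± 1.72 CPM. Of 7 genes of ascorbate, iron and copper supply 0 were called in 18 libraries by edgeR (1 at an unadjusted p under 0.05) and 2 in 15. The smallest p in that list belonged to Slc23a2, an ascorbate transporter gene (adjusted p = 0.117), and Slc39a13, a zinc transporter gene (0.233). In 15 libraries, where 20.8% of all genes were called, the counts in the first 4 lists were 11, 15, 8 and 10.

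Positions are given on GRCm39. Serpinh1 (ENSMUSG00000070436) lies on chromosome 7, 98994220 to 99005076, minus strand. P4ha1 (ENSMUSG00000019916) lies on chromosome 10, 59159092 to 59209126, plus strand, and P4ha2 (ENSMUSG00000018906) on chromosome 11, 53981553 to 54022494, plus strand. Plod1 (ENSMUSG00000019055) lies on chromosome 4, 147991574 to 148021356, minus strand, and no annotated gene overlaps any of these 4.

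The other 6 overlap annotated genes, so part of their counts is uncertain. Plod2 (ENSMUSG00000032374, chromosome 9, 92424119 to 92490494, plus strand) shares its locus with B430319G15Rik on the other strand, and Plod3 (ENSMUSG00000004846, chromosome 5, 137015827 to 137025502, plus strand) with Znhit1 on the other strand and Mir702 within it. Lox (ENSMUSG00000024529, chromosome 18, 52649136 to 52663110, minus strand) overlaps the non-coding Gm41724, and Loxl1 (ENSMUSG00000032334, chromosome 9, 58195014 to 58220495, minus strand) the non-coding Gm57034, each on the other strand. Loxl2 (ENSMUSG00000034205, chromosome 14, 69846209 to 69933283, plus strand) overlaps R3hcc1, Gm27177 and Gm37513 on the other strand and Mir6950 on its own. Loxl3 (ENSMUSG00000000693, chromosome 6, 83011152 to 83029543, plus strand) overlaps Htra2 on the other strand and Mir7040 on its own. How strand was set in the counting is not given in the sources used here.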

How the data were processed

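RNA of MEFs was sequenced in 18 libraries (6 each at 0, 10 and 30 µM uracil) and read as paired ends of 75 bases from stranded libraries depleted of ribosomal RNA. The values deposited by the authors are raw counts of read pairs for each Ensembl gene, with no normalisation. The submitters' processing notes name FastQC, HISAT2, SAMtools 1.2 and HTSeq, and the build GRCh38, a human build, although the gene identifiers are mouse. The mouse build and how strand was set are not given in the sources used here. Each of the 18 columns was matched to its sample by name, and 0 were left over.

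The 5 closing entries of uncounted pairs (unaligned 1.72% to 54.2%, outside genes 6.85% to 15.5%) stayed out of library sizes and tests. Gene names, positions and exon lengths came from GENCODE M39 on GRCm39, and promoter windows from RefSeq on GRCm38.p6. Genes were kept by filterByExpr, scaled by TMM and tested in R 4.3.3 with edgeR 4.0.16 (quasi-likelihood, robust) on the 18 libraries with dose alone in the model, or dose plus number for the test of number. Tests were two-sided, except F tests of several levels, and p-values were adjusted by Benjamini-Hochberg across every gene tested (threshold 0.05). SE is the log2 fold change over the root of F, and intervals are 95% t intervals. Log2 CPM used a prior count of 2.

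Alternatives were DESeq2 1.42.0, limma 3.58.1 (voom with quality weights), other scalings and filters, removal of single libraries and of 2 or 3 libraries, numbers 2 to 5, only the groups compared, and the number as a block. The scripts were tested on simulated data. The 10 genes, the lists and the tests were chosen with earlier results of these data known. Named genes were all 10, in each list any gene called for dose and the 2 with the smallest p for number, and for each of the 10 the 2 genes most alike in log2 CPM. No sequence of Lox, Loxl1, Loxl2, Loxl3 or Plod2 is shown.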

Additional observations from a re-analysis of the deposited data

Results flagged for a closer look

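Of 30 sets of 6 libraries (10 genes at 3 doses), 3 held a library whose gap to its nearest neighbour, divided by the whole range, passed Dixon's 95% critical value for 6 values. Chance alone passes about 1.5 of 30. Serpinh1 had 1538 CPM in control replicate 1, against 2807 to 3261 CPM in the other controls, and 2517 CPM in 10 µM replicate 6, against 2966 to 3152 CPM. Both libraries had more unaligned reads (54.2% and 5.24%) than the other 15, and the part of this in the low values was not tested. The other libraries of number 6 were also low for Serpinh1, with 2807 CPM in control and 2710 CPM at 30 µM. Loxl2 had 63.9 CPM in 10 µM replicate 5, against 82.0 to 92.0 CPM in the other libraries of that dose. That library had 2.32% unaligned reads, and the other libraries of number 5 were as low, with 63.3 CPM in control and 61.5 CPM at 30 µM.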

How the results depend on the processing

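Under each alternative run, 0 of the 10 genes were called in the dose tests it covered, which were all 5 except with only the groups compared, where the 3 contrasts were run. The number called for replicate number, 5 in the 18 libraries, was 8 with DESeq2, 9 with limma voom, 9 without control replicate 1 and 30 µM replicate 6, 9 in the 15 libraries, 9 in numbers 2 to 5, and 1 to 8 when single libraries were left out. The share of all genes called rose as well, from 12.6% to 21.6%, 42.4%, 23.6%, 20.8% and 19.9% in that order, and was 9.08% to 25.0% when single libraries were left out. RLE scaling, library totals and no filter gave 4 each, and a filter of at least 10 counts in every library gave 5. The shares of all genes called in these fits were 12.6%, 11.4%, 5.65% and 12.2%. Log2 fold changes, of which none was called, took the other sign as follows, and the cause was not tested. In the 15 libraries the values were 0.066 for Lox and 0.0036 for Plod3 at 10 µM, 0.010 for Lox and 0.012 for Loxl2 at 30 µM, 0.018 for Loxl2 at 30 against 10 µM. Without control replicate 1 and 30 µM replicate 6 the values were 0.072 for Lox, 0.016 for Loxl2, −0.038 for P4ha2 and −0.021 for Serpinh1 at 10 µM, 0.014 for Lox and 0.016 for Loxl2 at 30 µM, 0.018 for P4ha1 at 30 against 10 µM. With limma voom the values were 0.033 for Lox, 0.0063 for Loxl2 and 0.0044 for Plod3 at 10 µM, 0.045 for Lox and 0.068 for Loxl2 at 30 µM, 0.012 for Lox and 0.062 for Loxl2 at 30 against 10 µM. In numbers 2 to 5 the values were −0.019 for Loxl1, −0.017 for Loxl3, −0.10 for P4ha2, −0.020 for Plod1 and −0.0093 for Serpinh1 at 10 µM, −0.022 for P4ha2 and −0.00011 for Plod1 at 30 µM, 0.0054 for Loxl2 at 30 against 10 µM. With library totals the value was 0.0013 for Plod3 at 10 µM. With no filter the value was 0.0055 for Plod3 at 10 µM. When single libraries were left out, those that changed sign ranged from −0.24 to 0.067 for Lox, −0.17 to 0.011 for Loxl2, −0.0044 to 0.16 for Loxl3, −0.042 to 0.095 for P4ha2, −0.036 to 0.033 for Plod3 and −0.026 to 0.15 for Serpinh1 at 10 µM. Others ranged from −0.18 to 0.0017 for Loxl2, −0.011 to 0.083 for P4ha1 and −0.078 to 0.012 for Plod2 at 30 µM. Others ranged from −0.070 to 0.060 for Loxl2, −0.017 to 0.15 for Loxl3, −0.069 to 0.022 for P4ha1 and −0.0065 to 0.069 for Serpinh1 at 30 against 10 µM.

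With the replicate number as a block, 0 of the 10 genes were called in any dose test, as without it. In the block fit of all 18 libraries the log2 fold change at 30 µM was −0.20 for Lox and 0.15 for Loxl1, with no sign changed. By edgeR in this fit, 1 of the 10 had an unadjusted p under 0.05 at 30 µM against control, beside 6.76% of all genes. The same held for 1 of the 10 at 30 against 10 µM (4.24% of all genes) and 1 in the slope on dose (9.04%). With the block in the 15 libraries the values that took the other sign were −0.017 for Loxl1, −0.0049 for Loxl3, −0.10 for P4ha2 and −0.016 for Plod1 at 10 µM, −0.025 for P4ha2 and −0.0062 for Plod1 at 30 µM, 0.016 for Loxl2 at 30 against 10 µM. The smallest unadjusted p in that fit was 0.0227 (Plod2, 30 µM against 10 µM, edgeR adjusted p = 0.877), followed by 0.0242 for P4ha2 at 10 µM (adjusted p = 1.00), and Lox had 0.0445 at 30 µM (adjusted p = 0.896). The labels do not say what a number stands for. Deviations from the dose mean correlated at −0.10 to 0.71 between libraries of the same number, over 0.1 in 16 of 18 pairs and in all 13 pairs within the 15 libraries. Among libraries of the other doses, 14 of 18 libraries (12 of the 15) correlated best with one of their own number.

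Depth limits the low genes of the lists more than these 10, whose lowest count was 260 (P4ha2 in control replicate 1).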
